A study of Taxus mairei and Taxus cuspidata and Taxus x media with 9 samples.

Results

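Glutathione metabolism was followed through 100 of the 33895 unigenes of a *Taxus* twig transcriptome. A unigene is a transcript cluster of the de novo assembly, and 1 gene can be split over several of them. A unigene was a member if its annotation placed it in the KEGG pathway of glutathione metabolism (95 unigenes) or, failing that, if its gene name started with GST (5 unigenes). The general plant peroxidases of ortholog K00430 were to be left out, and 0 unigenes had to be removed for this reason. The members carried 17 different KEGG orthologs, that is, enzyme identities shared across species. Of the members, 28 were named as a GST, 5 had no ortholog and 15 had no gene name. Their median length was 862 bp, against 509 bp for all unigenes, and 35 members were shorter than 500 bp.

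RNA-seq was performed on fresh twigs, labelled as wood and needles, of *T. mairei*, *T. cuspidata* and *T. media*, with 3 libraries each. All trees were 3 years old, were kept under the same growth conditions and received no treatment, so that species was the only factor. The methods speak of independent trees and 3 biological replicates without saying which trees entered which library, so p-values measure the spread between these libraries. Because a whole twig was extracted, a lower level in a species can mean fewer cells that hold a transcript or less RNA per cell, which cannot be told apart here.

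Glutathione is a small thiol built from glutamate, cysteine and glycine, and it is the main soluble thiol buffer of plant cells. Glutamate-cysteine ligase and glutathione synthase make it, peroxidases and transferases use it against peroxides and reactive compounds, and glutathione reductase regenerates the reduced form with NADPH. Plant glutathione transferases form several classes, of which phi and tau are the large plant ones that conjugate glutathione to foreign compounds and to some products of secondary metabolism.

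For 8 libraries the tables held the estimated number of reads per unigene, with totals of 32783233 to 41647131 in *T. media*, of 39192663 to 44821305 in the libraries of *T. cuspidata*, and of 37887549 and 43480998 in *T. mairei*. *T. mairei* replicate 3 came without read counts and entered only the values in TPM (a level corrected for unigene length that sums to an equal amount for each library). The tests rest on the counts, in edgeR's quasi-likelihood fit with 1 mean per species, and a call needed a log2 fold change beyond 1 in either direction with an adjusted p (Benjamini-Hochberg, over all 32624 unigenes tested) of less than 0.05. Over all unigenes, TPM of *T. cuspidata* replicate 1 had a lower Pearson correlation with the other libraries of its species (0.865 and 0.870, across 33895 unigenes that are not independent) than these had with each other (0.986). The 36 unigenes of a list of photosynthetic needle markers summed to 18099 to 30936 TPM in *T. media*, 34581 to 40555 TPM in *T. cuspidata* and 2586 to 4761 TPM in *T. mairei*, with 22 to 31, 16 to 19 and 17 of them above 1 TPM. The 4 unigenes of a list for lignifying wood summed to 21.0 to 23.9, 16.4 to 25.8 and 57.0 to 87.7 TPM. Both lists thus set *T. mairei* apart from the other species, and the part of tissue make-up in the differences below was not tested.

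Together the members took up 0.494% of all TPM in *T. media*, 0.805% of it in *T. cuspidata* and 0.877% in *T. mairei*. Their summed TPM was 5304, 4976 and 4532 in the *T. media* libraries, 7945, 8286 and 7907 in *T. cuspidata*, and 7950, 8348 and 10000 in *T. mairei*. Every *T. media* library lay below every library of the other species, whereas *T. cuspidata* and *T. mairei* overlapped. The order of the latter pair was opposite in normalized counts, with a log2 ratio of -0.11 for *T. mairei* vs. *T. cuspidata*. The transferases made up 54.6%, 66.0% and 64.3% of the members' TPM in *T. media*, *T. cuspidata* and *T. mairei*, so that the sum follows mainly this enzyme class. *T. media* had the highest mean TPM for 25 of the 99 members tested (38.6% of all unigenes), *T. cuspidata* for 38 (34.4% of all) and *T. mairei* for 36 (27.0% of all).

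**Figure D1:**
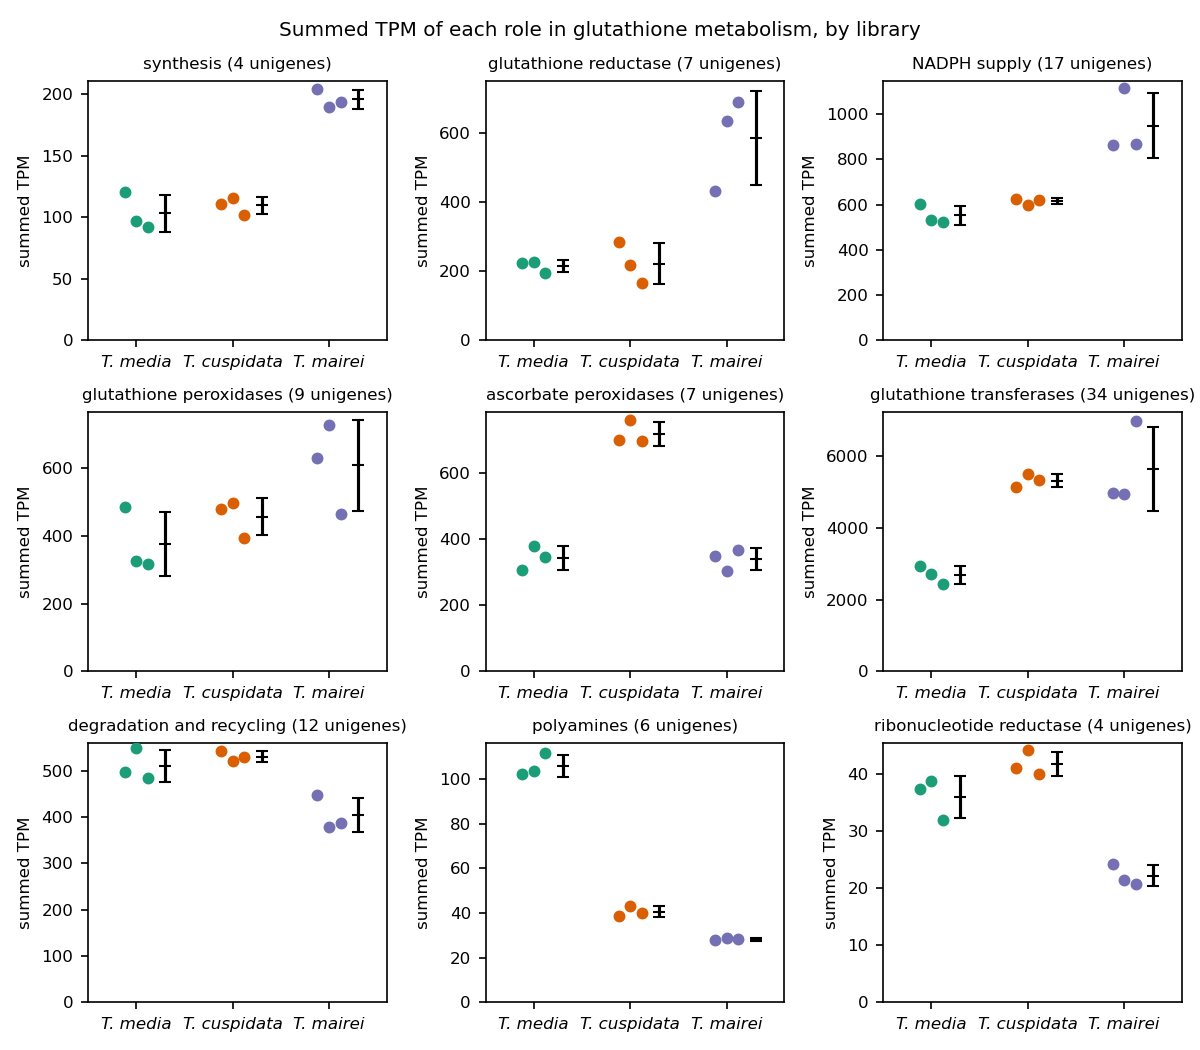
Summed TPM (vertical axes, starting at 0) of the unigenes of each role in glutathione metabolism. Each point is 1 library, and the horizontal tick with its bar gives the mean ± SD of the 3 libraries of a species. Synthesis, glutathione reductase and NADPH supply are highest in *T. mairei*, ascorbate peroxidases in *T. cuspidata* and polyamine enzymes in *T. media*, and the transferases are lowest in *T. media*.

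Between *T. media* and *T. cuspidata*, 35 of 99 members tested were called (background over all unigenes 25.8%), 17 higher in *T. media* (background 15.7%) and 18 higher in *T. cuspidata* (background 10.1%). In *T. media* vs. *T. mairei*, 54 were called (background 44.3%), of which 18 were higher in *T. media* (background 20.8%) and 36 in *T. mairei* (background 23.5%). In *T. mairei* vs. *T. cuspidata*, 59 were called (background 49.3%), with 36 higher in *T. mairei* (background 27.8%) and 23 higher in *T. cuspidata* (background 21.5%). On the count scale, calls higher in *T. mairei* thus outnumbered those in the other direction in both comparisons with this species. The median log2 fold change of the members was -0.08 for *T. media* vs. *T. cuspidata* (all unigenes 0.04), -0.47 for *T. media* vs. *T. mairei* (all 0.02) and 0.36 for *T. mairei* vs. *T. cuspidata* (all 0.06). Members without counts in a species stay on the same side of these medians when set to their lower bound, so that change could not move the medians. The 3 comparisons share species and are not independent of each other.

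The scale matters for *T. mairei*. On log2(TPM + 1), tested with limma, the median of all unigenes lay 0.61 higher in *T. media* than in *T. mairei*, against 0.02 on the count scale, and the members' median was 0.30 higher in *T. media*. Relative to the median unigene, the members stood at -0.48 in counts and -0.30 in TPM for *T. media* vs. *T. mairei*, and at 0.31 and 0.17 for *T. mairei* vs. *T. cuspidata*. Limma on TPM called 29 members in each direction in *T. media* vs. *T. mairei*, against a background of 33.9% for *T. media* and of 18.1% for *T. mairei*. In *T. mairei* vs. *T. cuspidata* it called 30 in each direction, against 21.9% of all unigenes for *T. mairei* and 31.5% for *T. cuspidata*. On that scale the member calls were thus even, while those of all unigenes leaned away from *T. mairei*. TPM of the libraries did not overlap between *T. media* and *T. cuspidata* for 25 members higher in the former (background 30.3%) and 29 higher in the latter (background 20.2%). In *T. media* vs. *T. mairei* this held for 44 members higher in *T. media* (background 51.9%) and for 36 higher in *T. mairei* (background 22.7%), and in *T. mairei* vs. *T. cuspidata* for 33 higher in *T. mairei* (background 27.1%) and 40 higher in *T. cuspidata* (background 44.3%), where 71.4% of all unigenes did not overlap in either direction.

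Of the 4 synthesis unigenes, the longer one of glutamate-cysteine ligase was higher in *T. mairei* than in both other species, the shorter one only than in *T. media*, and those of glutathione synthase were not called. Glutamate-cysteine ligase joins glutamate and cysteine in the first and rate-limiting step, and its longer unigene, GSH1 comp29901_c0 (2099 bp), stood at 44.6, 33.6 and 34.6 TPM in *T. media*, 36.1, 42.9 and 33.01 TPM in *T. cuspidata*, and 151, 129 and 140 TPM in *T. mairei*. All 3 *T. mairei* libraries lay far above the others, while *T. media* and *T. cuspidata* overlapped. Its counts were lower in *T. media* than in *T. mairei* by a log2 fold change of -2.23 (SE 0.16, edgeR adjusted p = 2.3e-05) and higher in *T. mairei* than in *T. cuspidata* by 2.10 (SE 0.16). The short unigene GSH1-1 comp4258_c0 (283 bp) had 33.1, 16.6 and 14.1 TPM in *T. media*, 36.3, 34.4 and 24.3 TPM in *T. cuspidata* and 33.2, 39.9 and 33.7 TPM in *T. mairei*. It was called in *T. media* vs. *T. mairei* (-1.49, SE 0.37, edgeR adjusted p = 0.010), but not on limma's TPM scale (-0.81) nor without *T. mairei* replicate 2 (-1.35), and it was not called in *T. mairei* vs. *T. cuspidata* (0.83). *T. media* replicate 1 was the highest of its species and came close to the lowest *T. mairei* library.

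Glutathione synthase, which adds glycine in the second step, went the other way in TPM. GSH2 comp27987_c0 (2080 bp) had 29.6, 25.8 and 26.7 TPM in *T. media*, 22.7, 24.3 and 22.5 TPM in *T. cuspidata* and 14.3, 15.1 and 13.1 TPM in *T. mairei*. The libraries of the 3 species did not overlap, yet on the count scale the differences were small, with 0.13 (SE 0.10) for *T. media* vs. *T. cuspidata* and 0.20 (SE 0.11) for *T. media* vs. *T. mairei*. The second GSH2 unigene, comp43526_c0 (483 bp), stood at 13.1 to 21.4 TPM in *T. media*, 14.7 to 22.1 TPM in *T. cuspidata* and 5.99 to 6.71 in *T. mairei*, and was called on limma's TPM scale in *T. media* vs. *T. mairei* (1.30) but not from the counts (0.81, SE 0.31). Summed over both unigenes, the ligase reached 58.9 ± 16.3, 69.0 ± 10.4 and 176 ± 8.13 TPM (SD, n = 3) in *T. media*, *T. cuspidata* and *T. mairei*, and the synthase 44.5 ± 2.39, 40.8 ± 3.28 and 20.4 ± 0.664 TPM. The first enzyme was therefore highest and the second lowest in the same species in TPM.

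Glutathione reductase, which returns oxidised glutathione to its thiol form, was represented by 7 unigenes, and their summed TPM was highest in *T. mairei*. There a single unigene, comp25317_c0, made up 59.7% of the sum. The summed TPM was 224, 228 and 195 in *T. media*, 284, 219 and 165 in *T. cuspidata* and 433, 636 and 690 in *T. mairei*. The *T. mairei* libraries lay above all others, and those of *T. media* and *T. cuspidata* overlapped. The summed counts were lower in *T. media* than in *T. mairei* by -1.23 (SE 0.16, edgeR adjusted p = 0.00042), a call that was lost without *T. mairei* replicate 2 (-0.92). In *T. mairei* vs. *T. cuspidata* the difference of 0.79 (SE 0.16) stayed below the fold threshold, though it passed it on limma's TPM scale (1.40) and without *T. mairei* replicate 1 (1.06).

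The most abundant reductase unigene, comp25317_c0 (1269 bp, 6 transcripts, named TPR in the annotation), had 85.7, 113 and 57.2 TPM in *T. media*, 43.6, 5.73 and 7.42 TPM in *T. cuspidata* and 219, 391 and 440 TPM in *T. mairei*. The species did not overlap, but *T. cuspidata* replicate 1 stood far above the other libraries of its species. It was called in all 3 comparisons, with 2.999 (SE 0.37) for *T. media* vs. *T. cuspidata*, -3.39 (SE 0.38) for *T. media* vs. *T. mairei* and 6.39 (SE 0.44, edgeR adjusted p = 1.4e-05) for *T. mairei* vs. *T. cuspidata*. The longest unigenes of the enzyme behaved differently. GRC2 comp27316_c0 (2166 bp) was at 62.0 to 75.5 TPM in *T. media*, 69.5 to 76.9 TPM in *T. cuspidata* and 32.9 to 43.0 in *T. mairei*, and was called in no comparison. GOR comp28141_c0 (2490 bp) had 38.0, 38.5 and 37.7 TPM in *T. media*, 85.3, 74.9 and 65.8 TPM in *T. cuspidata* and 27.5, 26.2 and 31.8 TPM in *T. mairei*. It was higher in *T. cuspidata* than in *T. media* (-1.09, SE 0.11, edgeR adjusted p = 0.00028), a call that limma did not make on TPM (-0.96).

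Among the short reductase unigenes, comp92293_c0 (275 bp) and comp91195_c0 (585 bp), both named GRC2, had no counts in *T. media* and *T. cuspidata*. In *T. mairei* they reached 61.5 to 69.9 and 41.7 to 59.7 TPM. Set against a limit of 3 counts summed over the libraries of a species, which covers counting error only, comp91195_c0 was at least 1519-fold higher in *T. mairei* than in *T. media* and at least 1505-fold higher than in *T. cuspidata*. EMB2360 comp73740_c0 (263 bp) was called in *T. media* vs. *T. mairei* (-1.87, SE 0.47, edgeR adjusted p = 0.010), but not without *T. mairei* replicate 1 (-1.72). The remaining unigene, comp115788_c0 (380 bp), varied from 0 to 25.1 TPM within *T. media*, from 4.90 to 48.4 within *T. cuspidata* and from 7.11 to 27.1 within *T. mairei*. That spread covers any difference between species, although leaving out *T. media* replicate 3 gave calls of -7.81 and -7.47 against *T. cuspidata* and *T. mairei*.

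NADPH for the reductase comes from glucose-6-phosphate dehydrogenase, 6-phosphogluconate dehydrogenase and NADP-dependent isocitrate dehydrogenase, which together held 17 unigenes. Their summed TPM was 525.3 to 602 in *T. media*, 600 to 625 TPM in *T. cuspidata* and 863 to 1114 in *T. mairei*, so *T. mairei* lay above both. By unigene, 3 were called higher in *T. media* (background 15.7%) and 4 in *T. cuspidata* (10.1%) in the first comparison, 2 in *T. media* (20.8%) and 9 in *T. mairei* (23.5%) in the next, and 6 in *T. mairei* (27.8%) and 5 in *T. cuspidata* (21.5%) in the last. The 3 enzymes differed in which species was lowest.

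Isocitrate dehydrogenase, with 5 unigenes, was lowest in *T. cuspidata*. Its summed TPM was 275, 217 and 214 in *T. media*, 103, 84.0 and 94.6 in *T. cuspidata* and 221, 318 and 181 in *T. mairei*. *T. cuspidata* did not overlap with either of the others. The summed counts differed by 1.08 (SE 0.15, edgeR adjusted p = 0.0010) between *T. media* and *T. cuspidata* and by 1.02 (SE 0.16, edgeR adjusted p = 0.00094) between *T. mairei* and *T. cuspidata*. Both values lie just above the fold threshold, and leaving out *T. cuspidata* replicate 2 brought them to 1.00 and 0.94, not called. The latter was also not called without *T. mairei* replicate 2 (0.77), with library sizes only (0.9975), with a mean count of at least 50 (0.97) and with recovered reads (0.93).

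The isocitrate dehydrogenase sum rested on other unigenes in *T. mairei* than in *T. media* and *T. cuspidata*. In the latter 2 species it was mostly comp29727_c0 (1940 bp), with 181, 149 and 148 TPM in *T. media* and 71.7, 63.5 and 73.5 in *T. cuspidata*. This unigene had 34.0, 46.5 and 46.8 TPM in *T. mairei*. All *T. media* libraries were above the rest, by 1.11 (SE 0.15) over *T. cuspidata* and 1.27 (SE 0.18) over *T. mairei*, both called. In *T. mairei*, CICDH comp9384_c0 (101, 159 and 73.0 TPM) and comp17142_c0 (74.5, 101 and 51.3 TPM) carried most of it. They had 50.5, 29.8 and 33.1 TPM, and 12.8, 8.19 and 7.41 TPM, in *T. media*. In *T. cuspidata* they were at or near 0, and comp17142_c0 was at least 382.8-fold higher in *T. media* and at least 5579-fold higher in *T. mairei* than there. The reverse held for the less abundant CICDH comp9854_c0, at 6.99 to 7.88 TPM in *T. cuspidata* and 0.91 to 2.64 TPM in the other species, which was called higher in *T. cuspidata* than in *T. media* (-1.76, SE 0.23).

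6-Phosphogluconate dehydrogenase, the second oxidative enzyme of the pentose phosphate pathway, rose in summed TPM from *T. media* (236, 230 and 230) over *T. cuspidata* (386, 393 and 416) to *T. mairei* (489, 611 and 547). The 3 species did not overlap in TPM. On the count scale the differences stayed below the fold threshold, at -0.39 (SE 0.12), -0.81 (SE 0.13) and 0.43 (SE 0.13) in the 3 comparisons. The *T. media* vs. *T. mairei* difference passed it without *T. mairei* replicate 1 (-1.01) and on limma's TPM scale (-1.23).

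Its 7 unigenes split by species. The 3 unigenes of component comp25345 were high in *T. cuspidata*, where comp25345_c0 had 90.1, 92.7 and 87.4 TPM, against 14.7, 17.1 and 13.4 TPM in *T. media* and 17.5, 14.96 and 19.1 TPM in *T. mairei*. It was lower in *T. media* than in *T. cuspidata* by -2.66 (SE 0.13, edgeR adjusted p = 9.5e-06), and its partners comp25345_c1 and comp25345_c2 by -2.52 (SE 0.20) and -3.07 (SE 0.17). G6PGH1 comp18551_c0 (478 bp, 221, 256 and 283 TPM) and pgdC comp13717_c0 (805 bp, 99.8, 148 and 110 TPM) were found in *T. mairei* and had no counts in the other species. For pgdC comp13717_c0 this amounts to at least 6157-fold over *T. media* and at least 6100-fold over *T. cuspidata*. The longest unigenes were much more even, with At5g41670 comp30204_c0 (1926 bp) at 78.9 to 97.3, 114 to 115 and 55.8 to 77.0 TPM, and pgdC comp27863_c0 (2007 bp) at 101 to 124, 67.3 to 73.5 and 42.7 to 86.3 TPM, in *T. media*, *T. cuspidata* and *T. mairei*. Neither was called in any comparison.

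Glucose-6-phosphate dehydrogenase, which opens the pathway, summed to 81.5 to 91.3 TPM in *T. media*, 110 to 135 TPM in *T. cuspidata* and 138 to 185 in *T. mairei*. As for the previous enzyme, the species did not overlap in TPM and the sums were not called. The summed counts gave -0.58 (SE 0.10) for *T. media* vs. *T. cuspidata* and -0.64 (SE 0.12) for *T. media* vs. *T. mairei*. For *T. mairei* vs. *T. cuspidata* they gave 0.06 (SE 0.12), so the TPM order of this pair was not seen in counts. APG1 comp95457_c0 (255 bp) had counts in *T. mairei* alone, at 23.3 to 29.9 TPM.

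**Figure D2:**
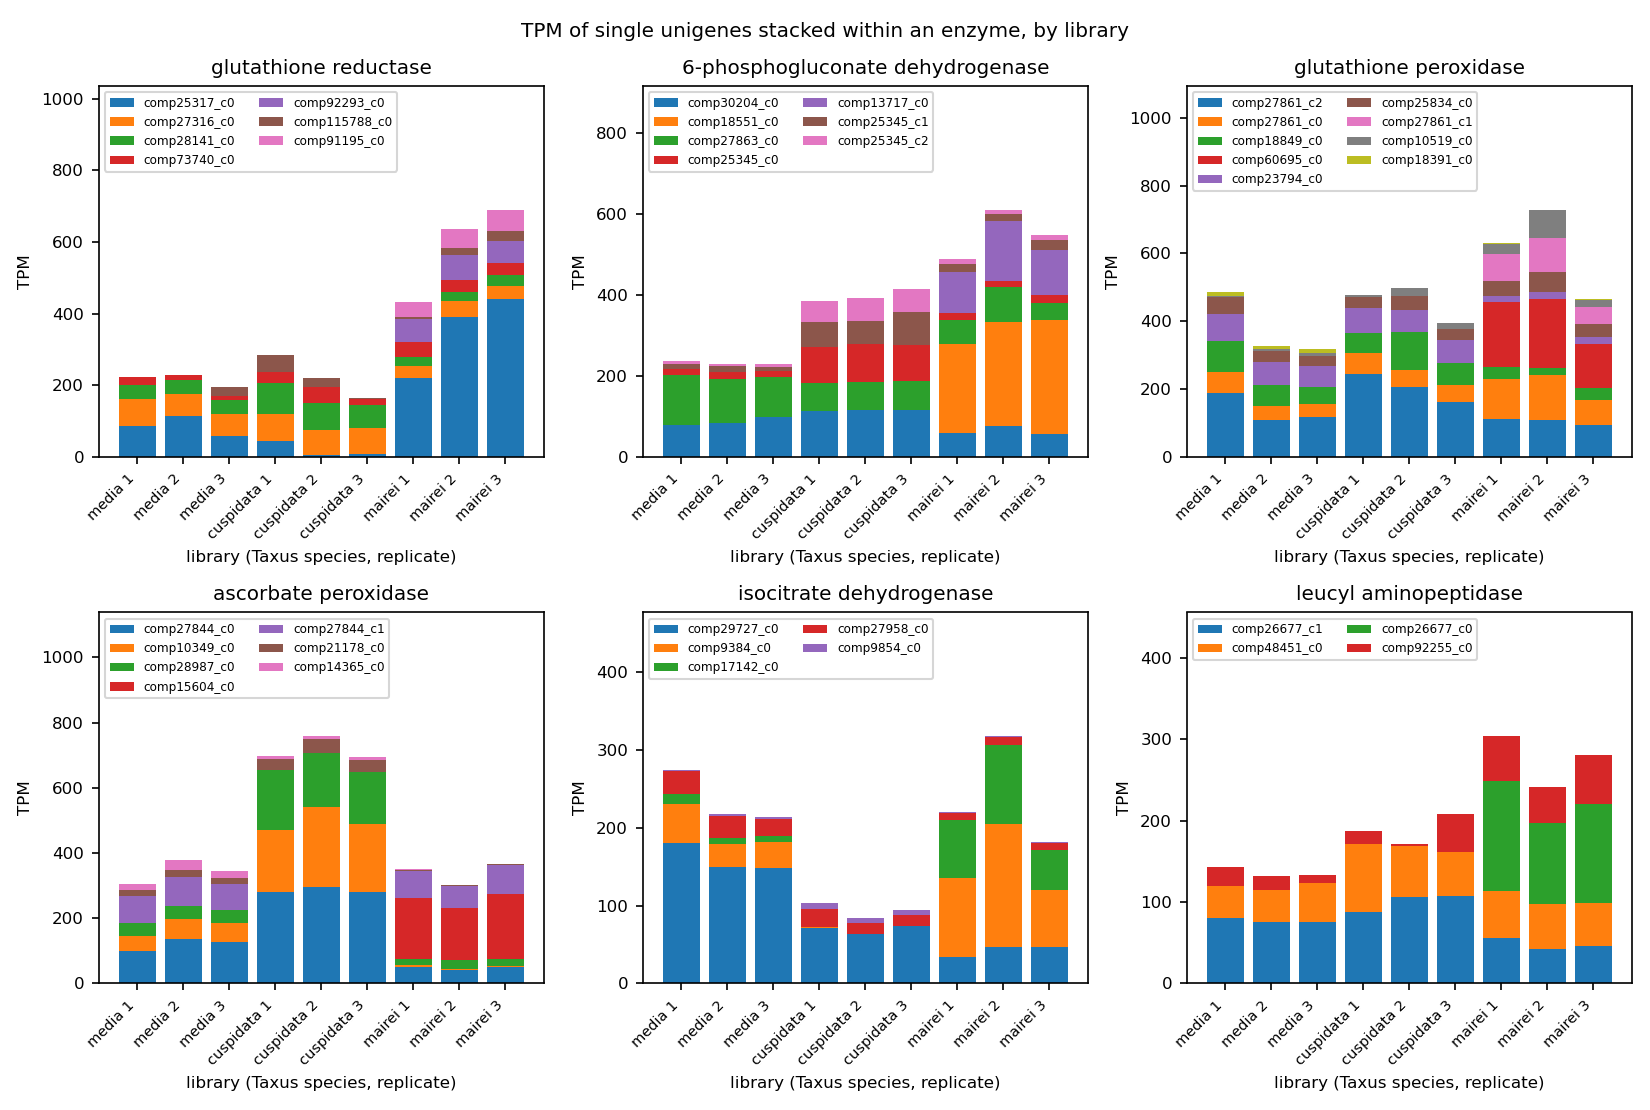
TPM (vertical axes, starting at 0) of the single unigenes of 6 enzymes, stacked within each of the 9 libraries. Each colour is 1 unigene of that enzyme. In glutathione reductase, 6-phosphogluconate dehydrogenase, glutathione peroxidase, ascorbate peroxidase, isocitrate dehydrogenase and leucyl aminopeptidase, the *T. mairei* bars hold unigenes at 0 or near 0 TPM in 1 or both of the other species.

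Glutathione peroxidases reduce hydrogen peroxide and lipid peroxides, in plants mostly with thioredoxin as the electron donor. Their 9 unigenes summed to 487, 327 and 318 TPM in *T. media*, 479, 497 and 394 TPM in *T. cuspidata* and 631, 729 and 465 TPM in *T. mairei*. The libraries of all species overlapped, and the summed counts were called in no comparison (-0.33, SE 0.16, -0.76, SE 0.18, and 0.43, SE 0.18). By unigene, 5 were called higher in *T. mairei* than in *T. media* (background 23.5%) and 2 lower (20.8%), and 6 higher in *T. mairei* than in *T. cuspidata* (27.8%) and 1 lower (21.5%). The longest, GPX1 comp23794_c0 (1302 bp), went against that count, with 78.7, 66.7 and 62.6 TPM in *T. media*, 74.4, 65.6 and 67.4 TPM in *T. cuspidata* and 20.3, 19.1 and 20.3 TPM in *T. mairei*. *T. mairei* lay below all other libraries, by 1.11 (SE 0.12, edgeR adjusted p = 0.00020) relative to *T. media* and -1.19 (SE 0.12) relative to *T. cuspidata*.

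The most abundant peroxidase unigene, comp27861_c2 (1260 bp), was at 109 to 189, 161 to 245 and 94.9 to 113 TPM in *T. media*, *T. cuspidata* and *T. mairei* and was not called in any comparison. Its shorter partners in the same component were higher in *T. mairei*. Of these, comp27861_c0 (497 bp) had 60.0, 39.9 and 39.0 TPM in *T. media*, 60.8, 50.1 and 50.5 TPM in *T. cuspidata* and 115, 135 and 72.7 TPM in *T. mairei*, and was called against both (-2.15, SE 0.19, and 1.84, SE 0.19). The other, comp27861_c1 (505 bp), had 50.9 to 99.8 TPM in *T. mairei* and no counts in *T. cuspidata*, which makes it at least 1942-fold higher. Outside this component, the short comp60695_c0 (265 bp) had 190, 203 and 132 TPM in *T. mairei*, 0.42 TPM in *T. media* replicate 1 and no counts in *T. cuspidata* (at least 1099-fold). GPXMC1 comp18391_c0 (436 bp) was a unigene of *T. media*, at 12.5, 9.79 and 12.9 TPM against 0.22 to 1.06 in *T. cuspidata* and 1.49 to 3.40 in *T. mairei*. Its value of 4.04 (SE 0.50) over *T. cuspidata* was called, and that of 2.18 (SE 0.52) over *T. mairei* was called as well but not without *T. mairei* replicate 1 (2.26) or 2 (2.10).

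Ascorbate peroxidases, which remove hydrogen peroxide with ascorbate that glutathione helps to regenerate, were highest in *T. cuspidata*. Their 7 unigenes summed to 305, 378 and 346 TPM in *T. media*, 698, 758 and 695 TPM in *T. cuspidata* and 350, 302 and 367 TPM in *T. mairei*. *T. cuspidata* lay above all other libraries, and *T. media* and *T. mairei* overlapped. The summed counts were lower in *T. media* than in *T. cuspidata* by -1.52 (SE 0.12, edgeR adjusted p = 8.1e-05) and lower in *T. mairei* than in *T. cuspidata* by -1.98 (SE 0.15, edgeR adjusted p = 1.7e-05), and no alternative setting changed these calls. The needle marker sum was also highest in *T. cuspidata* (34581 to 40555 TPM), and its part in this difference was not tested. The size of the difference between *T. cuspidata* and *T. mairei* depended on the scale, with 3.93-fold in counts and 2.11-fold in mean summed TPM. In *T. media* vs. *T. mairei* the difference was 0.46 (SE 0.14) and was not called.

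By unigene, APX3 comp27844_c0 (1387 bp) led in *T. cuspidata*, with 280, 296 and 281 TPM against 98.4, 136 and 125 TPM in *T. media* and 51.3, 40.6 and 48.8 TPM in *T. mairei*. APX8 comp28987_c0 (1973 bp) had 182, 164 and 159 TPM in *T. cuspidata*, 40.02, 38.9 and 38.8 TPM in *T. media* and 19.5, 26.1 and 21.6 TPM in *T. mairei*. Both were called higher in *T. cuspidata* than in *T. media* (-1.33, SE 0.17, and -2.19, SE 0.14) and than in *T. mairei* (-2.02, SE 0.20, and -2.26, SE 0.16). The widest gap among the long unigenes was that of comp10349_c0 (1506 bp), at 191, 245 and 208 TPM in *T. cuspidata*, 45.9, 62.0 and 60.4 TPM in *T. media* and 4.53, 4.36 and 4.71 TPM in *T. mairei*. All 3 comparisons were called, with -2.02 (SE 0.17), 2.96 (SE 0.21) and -4.98 (SE 0.24, edgeR adjusted p = 2.7e-06). Shorter unigenes broke the pattern. APX4 comp27844_c1 (520 bp) had 78.9 to 87.5 TPM in *T. media*, 65.6 to 87.2 TPM in *T. mairei* and no counts in *T. cuspidata*, and was at least 1354-fold higher in *T. media* and at least 1992-fold higher in *T. mairei* than there. APX3 comp15604_c0 (353 bp) had 161 to 200 TPM in *T. mairei* and no counts elsewhere, and it made up 53.8% of the summed ascorbate peroxidase TPM of that species. APX2 comp14365_c0 (934 bp) was highest in *T. media* (18.2, 29.5 and 23.3 TPM), lower in *T. cuspidata* (8.86 to 10.1) and lowest in *T. mairei* (0.67 to 0.99), with all differences called.

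Glutathione transferases were the largest group, with 34 unigenes, of which 11 had the name of a phi class enzyme, 11 of a tau (among them PARA and PARC, named after tau transferases of tobacco), 3 of a zeta, 2 of a lambda and 2 of a theta, and 5 could not be classed by name. They summed to 2929, 2724 and 2428 TPM in *T. media*, 5128, 5489 and 5322 TPM in *T. cuspidata*, and 4970, 4948 and 6982 TPM in *T. mairei*. *T. media* lay below all libraries of the others, and these overlapped. The 29 unigenes of the transferase ortholog together differed by -0.97 (SE 0.10, edgeR adjusted p = 0.00028) between *T. media* and *T. cuspidata*, just under the fold threshold. Between *T. media* and *T. mairei* they differed by -0.76 (SE 0.11, edgeR adjusted p = 0.00074), also under it. Limma on TPM put the latter past it (-1.06). Between *T. mairei* and *T. cuspidata* the difference was -0.21 (SE 0.11). By unigene, 15 of the 34 were called higher in *T. mairei* than in *T. cuspidata* (background 27.8%) and 11 lower (background 21.5%), with 8 not called.

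**Figure D3:**
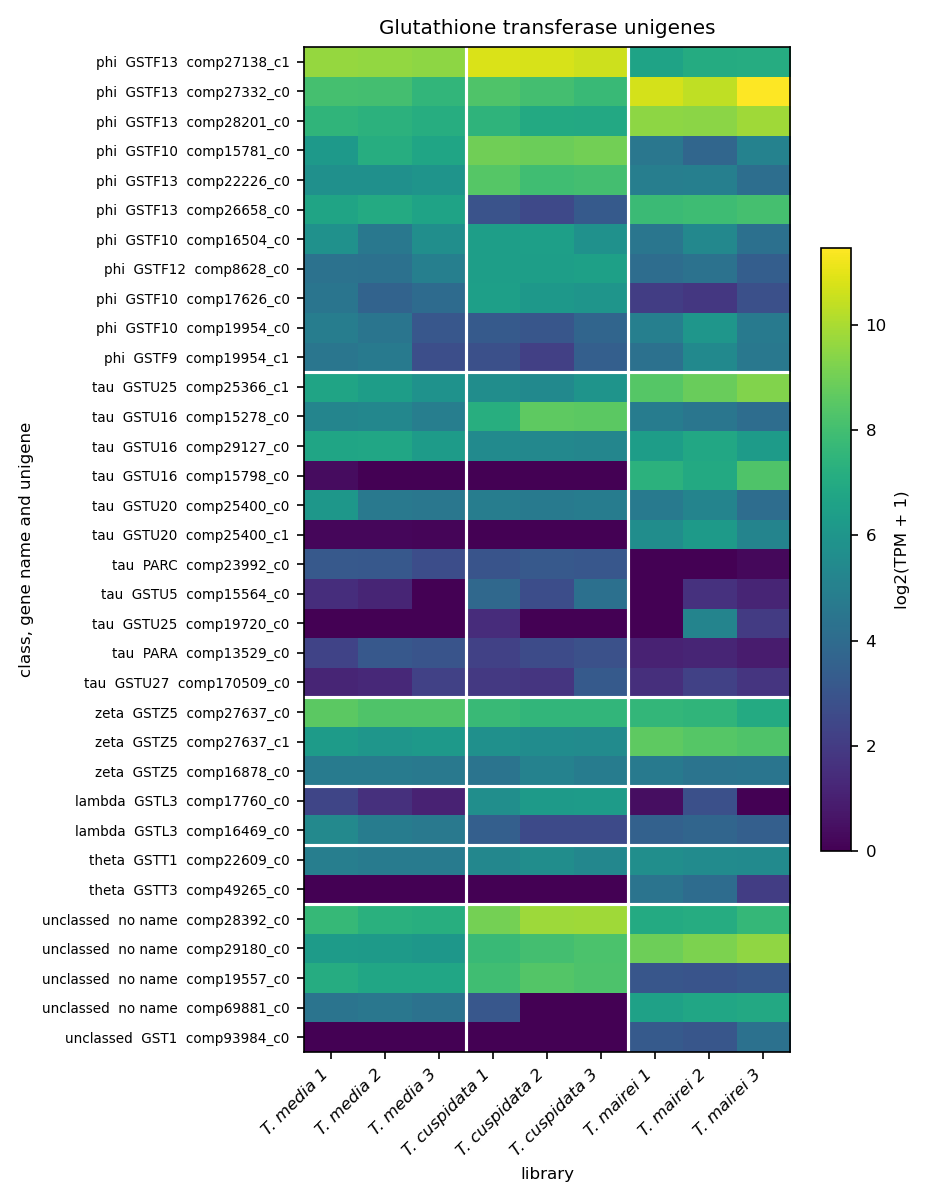
Level of each of the 34 glutathione transferase unigenes (rows, grouped by the class in their gene name) in each of the 9 libraries (columns), as log2(TPM + 1) in colour. White lines separate the classes and the species. The brightest row is GSTF13 comp27138_c1 in *T. media* and *T. cuspidata* and GSTF13 comp27332_c0 in *T. mairei*.

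A pair of phi unigenes with the same gene name, GSTF13, led the class in different species. GSTF13 comp27138_c1 (1051 bp) had 791, 776 and 724 TPM in *T. media*, 1795, 1736 and 1546 TPM in *T. cuspidata* and 101, 134 and 135 TPM in *T. mairei*. The species did not overlap, and all 3 comparisons were called, with -1.23 (SE 0.15) and -3.23 (SE 0.19, edgeR adjusted p = 6.7e-06) relative to *T. cuspidata*. GSTF13 comp27332_c0 (929 bp) stood at 269, 265 and 183 TPM in *T. media*, 318, 265 and 215 TPM in *T. cuspidata* and 1675, 1321 and 2825 TPM in *T. mairei*. Here *T. media* and *T. cuspidata* overlapped and *T. mairei* was far above both (-2.84, SE 0.18, and 2.82, SE 0.18, both called). By mean TPM among all unigenes, comp27138_c1 ranked 111 in *T. media*, number 73 in *T. cuspidata* and 1300 in *T. mairei*, and comp27332_c0 ranked 449, 489 and 30. They supplied 28.3% and 31.8% of all transferase TPM in *T. media* and *T. cuspidata* (comp27138_c1), and 34.4% in *T. mairei* (comp27332_c0).

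The other GSTF13 unigenes divided in the same manner. GSTF13 comp28201_c0 (1035 bp) had 141 to 177, 120 to 177 and 705 to 904 TPM in *T. media*, *T. cuspidata* and *T. mairei*, and was called higher in *T. mairei* than in both. GSTF13 comp26658_c0 (979 bp) had 101, 128 and 98.0 TPM in *T. media*, 6.53, 4.84 and 8.50 TPM in *T. cuspidata* and 224, 237 and 268 TPM in *T. mairei*, with 3.96 (SE 0.24) for *T. media* vs. *T. cuspidata* and 5.74 (SE 0.27, edgeR adjusted p = 2.6e-06) for *T. mairei* vs. *T. cuspidata*. GSTF13 comp22226_c0 (942 bp) was the reverse, at 352, 245 and 261 TPM in *T. cuspidata*, 53.1, 52.9 and 60.3 TPM in *T. media* and 28.6, 29.7 and 16.5 TPM in *T. mairei*. Added up over the 5 unigenes of this name, the level was 1329 ± 106, 2392 ± 250 and 3111 ± 913 TPM (SD, n = 3) in *T. media*, *T. cuspidata* and *T. mairei*, and the *T. mairei* spread included the *T. cuspidata* mean.

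The 4 GSTF10 unigenes differed in direction. The most abundant, GSTF10 comp15781_c0 (994 bp), had 502, 479 and 518 TPM in *T. cuspidata*, 72.6, 141 and 105 TPM in *T. media* and 22.6, 12.9 and 32.5 TPM in *T. mairei*. No libraries overlapped between species, and the log2 fold changes of -2.31 (SE 0.29), 1.89 (SE 0.34) and -4.20 (SE 0.38) were all called. GSTF10 comp17626_c0 (980 bp) showed the same order at a lower level, with 61.9 to 87.4 TPM in *T. cuspidata*, 11.5 to 20.6 in *T. media* and 2.65 to 5.98 in *T. mairei*. GSTF10 comp19954_c0 (623 bp) went the other way, with 8.49, 7.33 and 12.6 TPM in *T. cuspidata*, 27.9, 20.7 and 7.63 TPM in *T. media* and 29.7, 64.0 and 25.8 TPM in *T. mairei*, and was called higher in *T. mairei* than in *T. cuspidata* (2.91, SE 0.52, edgeR adjusted p = 0.0018) and than in *T. media* (-2.17, SE 0.51), where the libraries overlapped. The short GSTF10 comp16504_c0 (224 bp) was called in no comparison. GSTF12 comp8628_c0 (342 bp), named after the *Arabidopsis* phi transferase needed for anthocyanin transport, had 86.1, 85.8 and 89.3 TPM in *T. cuspidata*, 19.0, 18.5 and 30.4 TPM in *T. media* and 15.9, 18.7 and 9.66 TPM in *T. mairei*. It was higher in *T. cuspidata* than in *T. media* (-2.02, SE 0.25, edgeR adjusted p = 0.00062) and than in *T. mairei* (-1.71, SE 0.28).

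Tau unigenes summed to 203 to 327 TPM in *T. media*, 296 to 542 TPM in *T. cuspidata* and 698 to 1103 in *T. mairei*, with *T. mairei* above both. GSTU25 comp25366_c1 (884 bp) accounted for 54.0% of the *T. mairei* sum, at 348, 464 and 632 TPM against 102, 82.6 and 57.0 TPM in *T. media* and 47.9, 42.5 and 59.4 TPM in *T. cuspidata*. It was called in *T. media* vs. *T. mairei* (-1.38, SE 0.28, edgeR adjusted p = 0.0041) and in *T. mairei* vs. *T. cuspidata* (2.28, SE 0.29). In *T. cuspidata* the short GSTU16 comp15278_c0 (274 bp) led the class instead, with 146, 396 and 378 TPM against 29.3 to 39.0 in *T. media* and 16.3 to 27.2 in *T. mairei*. *T. cuspidata* replicate 1 was the lowest of its species and still above every library of the others, and both differences were called (-3.34, SE 0.43, and -3.12, SE 0.51). A different GSTU16 unigene, comp15798_c0 (308 bp), had 166, 122 and 318 TPM in *T. mairei*, 0.29 TPM in *T. media* replicate 1 and no counts in *T. cuspidata*, where the bound is at least 1307-fold. GSTU20 comp25400_c1 (491 bp) had 48.7, 74.0 and 35.5 TPM in *T. mairei*, 0.10 to 0.16 TPM in *T. media* and no counts in *T. cuspidata* (at least 1454-fold). The auxin-regulated tobacco gene name PARC went to comp23992_c0 (840 bp), which had 5.54 to 8.09 TPM in *T. media*, 6.93 to 8.27 TPM in *T. cuspidata*, and 0, 0 and 0.19 TPM in *T. mairei*. Against the *T. mairei* libraries with counts, it was at least 150-fold higher in *T. media* and at least 168-fold higher in *T. cuspidata* than in *T. mairei*.

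Zeta transferases, which act as maleylacetoacetate isomerases in tyrosine breakdown, also exchanged unigenes. Their sum was 405 to 482 TPM in *T. media*, 259 to 293 TPM in *T. cuspidata* and 461 to 603 in *T. mairei*. GSTZ5 comp27637_c0 (1300 bp) was the main one in *T. media* (379, 314 and 318 TPM) and *T. cuspidata* (219, 183 and 186 TPM), with 191, 178 and 129 TPM in *T. mairei*, and was called in no comparison. GSTZ5 comp27637_c1 (1146 bp), of the same component, took over in *T. mairei*, with 388, 346 and 312 TPM against 76.7, 64.7 and 72.6 TPM in *T. media* and 53.0, 46.8 and 45.9 TPM in *T. cuspidata*. It differed by -2.46 (SE 0.12, edgeR adjusted p = 5.4e-06) and 2.97 (SE 0.12, edgeR adjusted p = 1.8e-06) in the comparisons with *T. mairei*.

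The lambda unigenes, a class that reduces glutathione adducts, ran in opposite directions between *T. media* and *T. cuspidata*. GSTL3 comp17760_c0 (265 bp) had 50.5, 74.6 and 76.9 TPM in *T. cuspidata*, 4.28, 2.01 and 1.16 TPM in *T. media* and 0.35, 6 and 0 TPM in *T. mairei* (-4.82, SE 0.86, and -3.80, SE 0.96). *T. mairei* replicate 2 carried nearly all of the *T. mairei* signal, and without it the latter value was -6.91. GSTL3 comp16469_c0 (988 bp) had 41.0, 27.3 and 23.8 TPM in *T. media*, 9.93, 4.94 and 4.88 TPM in *T. cuspidata* and 10.9, 12.4 and 10.03 TPM in *T. mairei*, and was called higher in *T. media* than in *T. cuspidata* (2.14, SE 0.31).

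Of the theta unigenes, GSTT3 comp49265_c0 (451 bp) had counts in *T. mairei* alone (20.5, 15.8 and 3.26 TPM). This left GSTT1 as the single theta unigene of *T. media* and *T. cuspidata*, at 25.9 to 29.1 and 38.3 to 48.7 TPM. Among the transferases without a class, comp28392_c0 (1135 bp) was highest in *T. cuspidata* with 544, 874 and 898 TPM, against 204, 156 and 145 TPM in *T. media* and 127, 136 and 196 TPM in *T. mairei*. The values of *T. media* and *T. mairei* overlapped, and *T. cuspidata* lay above both (-2.26, SE 0.23, and -2.17, SE 0.26, called). The unigene comp19557_c0 (733 bp) had 250, 331 and 307 TPM in *T. cuspidata*, 136, 109 and 109 TPM in *T. media* and 7.48, 6.76 and 8.05 TPM in *T. mairei*. Its fall from *T. cuspidata* to *T. mairei* was -4.76 (SE 0.20, edgeR adjusted p = 1.9e-06), and that from *T. media* was 3.35 (SE 0.19).

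Breakdown of glutathione begins with gamma-glutamyltranspeptidase, which removes the glutamyl group outside the cytosol, and this enzyme was highest in *T. media* in TPM. Its summed TPM was 150, 175 and 133 in *T. media*, 51.6, 48.7 and 42.2 in *T. cuspidata* and 11.8, 41.3 and 7.33 in *T. mairei*. The species did not overlap, and *T. mairei* replicate 2 stood far above the other libraries of its species. The summed counts were higher in *T. media* than in *T. cuspidata* by 1.86 (SE 0.42, edgeR adjusted p = 0.0096). For *T. mairei* vs. *T. cuspidata* the scales disagreed. The counts gave 1.32 (SE 0.45, edgeR adjusted p = 0.034), higher in *T. mairei*, whereas limma on log2(TPM + 1) gave -1.55, and without *T. mairei* replicate 2 the count value was -0.01. The main unigene, GGT3 comp30342_c0 (2325 bp), merged 59 transcripts, and the other, GGT1 comp28277_c0 (2246 bp), merged 8. No direction can be given for this comparison. In *T. media* vs. *T. mairei* the counts gave 0.55 (SE 0.46, not called), from -0.15 without *T. mairei* replicate 1 to 1.88 without replicate 2, and limma gave 3.21.

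Other enzymes of degradation changed less. Leucyl aminopeptidase, which splits the cysteinyl-glycine left by the previous step, summed to 132 to 143 TPM in *T. media*, 171 to 208 TPM in *T. cuspidata* and 241 to 304 in *T. mairei*, and was not called. Its unigene comp26677_c0 (588 bp) had 136, 99.3 and 122 TPM in *T. mairei*, no counts in *T. media* and 0.08 TPM in *T. cuspidata* replicate 2. It was at least 3843-fold higher in *T. mairei* than in *T. media*. The longer unigene of the same component, comp26677_c1 (2091 bp), had 74.8 to 79.7, 88.2 to 107 and 42.4 to 55.2 TPM in *T. media*, *T. cuspidata* and *T. mairei* and was not called. Aminopeptidase N was lowest in *T. mairei*, at 85.9 to 122 TPM against 189 to 227 TPM in *T. media* and 268 to 293 TPM in *T. cuspidata*. Its summed counts were called in *T. mairei* vs. *T. cuspidata* (-1.04, SE 0.13, edgeR adjusted p = 0.00022), but not without *T. cuspidata* replicate 2 (-0.99) or *T. mairei* replicate 2 (-0.98). The sum followed pepN comp30532_c2 (3706 bp), with 142, 167 and 161 TPM in *T. media*, 255, 243 and 217 TPM in *T. cuspidata* and 55.3, 49.2 and 51.4 TPM in *T. mairei*, which was called in the same comparison (-1.12, SE 0.15). 5-Oxoprolinase, which returns glutamate to the cycle, had 12.5 to 15.1, 10.2 to 12.4 and 8.08 to 10.3 TPM and was not called. The aminopeptidase N unigene comp129975_c0 was listed at 0 in every library and was the 1 member that could not be tested.

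KEGG also places the polyamine enzymes on this map, because glutathione forms conjugates with spermidine in some organisms. In sum they were highest in *T. media*. Of the 6 unigenes, 4 were called higher there than in *T. cuspidata* (background 15.7%). Also 4 were called higher than in *T. mairei* (background 20.8%). The most abundant unigene, comp29359_c0 (1870 bp), was called in no comparison (0.10, SE 0.16, over *T. cuspidata* and -0.04, SE 0.18, over *T. mairei*). Its TPM overlapped between *T. media* (21.5 to 29.3) and *T. cuspidata* (18.9 to 27.5), and *T. mairei* lay below *T. media* (mean 14.6). It made up 57.7% of the polyamine TPM of *T. cuspidata* and 51.6% of that of *T. mairei*. The sum was 102, 104 and 112 TPM in *T. media*, 38.5, 43.3 and 40.2 TPM in *T. cuspidata* and 27.7, 28.8 and 28.2 TPM in *T. mairei*. The order of the latter pair was opposite in TMM-normalized counts, with a log2 ratio of 0.20 in favour of *T. mairei*. The 3 unigenes named ACL5, which in *Arabidopsis* is a thermospermine synthase that acts in xylem formation, summed to 37.0 ± 6.31 TPM (SD, n = 3) in *T. media*, against at most 0.07 TPM in any *T. mairei* library and 0 TPM in *T. cuspidata*. ACL5 comp154_c0 (293 bp) had 21.7, 15.7 and 23.1 TPM in *T. media* and no counts elsewhere, which makes it at least 97.1-fold higher than in *T. cuspidata* and at least 62.3-fold higher than in *T. mairei*. ACL5 comp154_c1 (334 bp) had 6.91 to 9.13 TPM in *T. media* and likewise no counts elsewhere, and ACL5 comp152246_c0 (388 bp) had 7.34 to 11.4 TPM in *T. media*, 0 TPM in *T. cuspidata* and 0.07 TPM in *T. mairei* replicate 2.

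SPDSYN1 comp20123_c0 (1666 bp), a spermidine synthase, had 33.1 to 34.6 TPM in *T. media*, 10.95 to 18.9 TPM in *T. cuspidata* and 11.9 to 14.2 in *T. mairei* and stayed below the fold threshold (0.97, SE 0.21, and 0.71, SE 0.24). Summed over its 5 unigenes, spermidine synthase reached 0.64 (SE 0.10) and 0.42 (SE 0.12) over *T. cuspidata* and *T. mairei* in counts, not called, and 1.26 and 1.75 on limma's TPM scale, where both were called. Ornithine decarboxylase comp4179_c0 (429 bp), which makes putrescine, had 4.17, 11.1 and 14.7 TPM in *T. media*, 0, 0.93 and 2.36 TPM in *T. cuspidata* and 0.82, 0.30 and 0.29 TPM in *T. mairei*. Its summed counts were called in *T. media* vs. *T. cuspidata* (3.09, SE 1.02, edgeR adjusted p = 0.045) and in *T. media* vs. *T. mairei* (3.44, SE 1.24, edgeR adjusted p = 0.045). Both calls were lost without *T. media* replicate 2 (3.02 and 3.37), *T. media* replicate 3 (2.68 and 3.03), *T. cuspidata* replicate 2 (2.96 and 3.44), *T. mairei* replicate 1 (3.10 and 4.33) or *T. mairei* replicate 2 (3.10 and 2.92).

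Ribonucleotide reductase, which draws on glutathione through glutaredoxin, was low throughout. Its 4 unigenes summed to 31.9 to 38.8 TPM in *T. media*, 40.02 to 44.1 TPM in *T. cuspidata* and 20.8 to 24.3 in *T. mairei*. No ortholog sum was called. The small subunit, comp24018_c0 (1280 bp), had 12.6 to 17.5, 22.6 to 27.9 and 14.0 to 16.0 TPM. Among the unigenes of the large subunit, RNR1 comp12872_c0 (253 bp) had 9.04 to 10.7 TPM in *T. media* and 0 to 0.71 TPM in *T. mairei*, and its call of 4.07 (SE 1.43, edgeR adjusted p = 0.041) was lost when any library of either species was left out (3.04 to 7.87). For the large subunit the value of *T. media* vs. *T. mairei* was -0.29 (SE 0.13) in counts and 1.39 on limma's TPM scale, so no direction is given.

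Summing the counts of all unigenes of an ortholog asks whether a difference remains over these unigenes together. Such a sum pools unigenes with different gene names as well as possible pieces of 1 gene. Counts are not corrected for length, so short unigenes weigh less in it than in summed TPM. Of the 17 orthologs, 4 were called in *T. media* vs. *T. cuspidata* (background over 2094 orthologs 13.7%), 3 in *T. media* vs. *T. mairei* (background 23.1%) and 5 in *T. mairei* vs. *T. cuspidata* (background 29.8%). Isocitrate dehydrogenase, gamma-glutamyltranspeptidase and ornithine decarboxylase were the 3 higher in *T. media* than in *T. cuspidata* (background 5.49%), and ascorbate peroxidase was the 1 lower (background 8.21%). In *T. media* vs. *T. mairei* the called enzymes were glutamate-cysteine ligase and glutathione reductase, higher in *T. mairei* (background 10.2%), and ornithine decarboxylase, higher in *T. media* (background 12.9%). In *T. mairei* vs. *T. cuspidata*, glutamate-cysteine ligase, isocitrate dehydrogenase and, with the reservation given above, gamma-glutamyltranspeptidase were higher in *T. mairei* (background 10.7%), and ascorbate peroxidase and aminopeptidase N were lower (background 19%). Glutamate-cysteine ligase (-2.23, SE 0.15, edgeR adjusted p = 1.5e-05, and 2.10, SE 0.15, edgeR adjusted p = 1.4e-05) and ascorbate peroxidase kept their calls under every alternative tried. For 10 of the 17 orthologs, no comparison passed the thresholds.

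**Figure D4:**
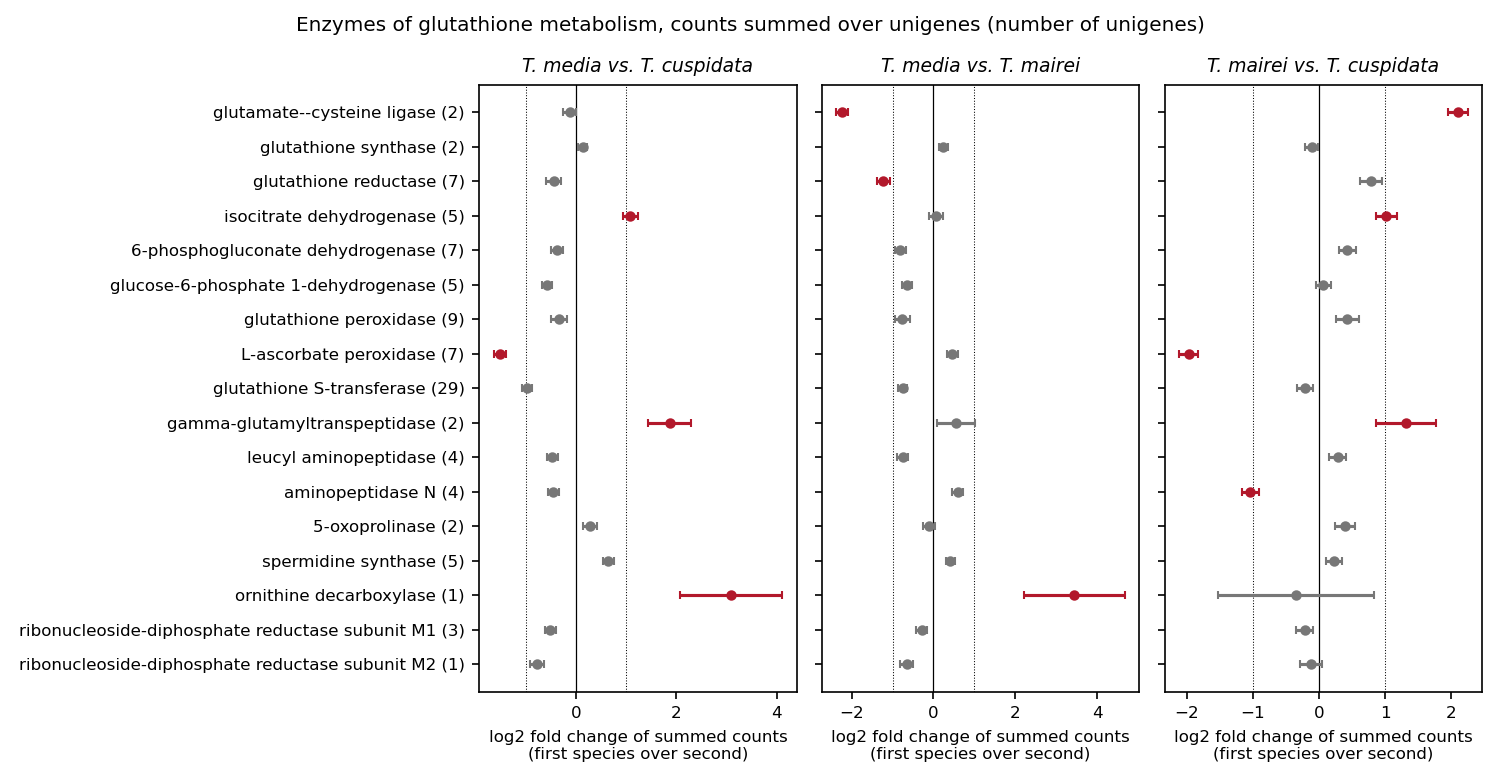
Log2 fold change of the summed counts of each enzyme (horizontal axes, first species over second, with a separate range in each panel) for the 3 comparisons. Points are edgeR estimates, bars are ± 1 SE, red points were called, the dotted lines mark the fold threshold of 1 and numbers in brackets are unigenes. Glutamate-cysteine ligase stands apart in both comparisons with *T. mairei*, and ascorbate peroxidase in both with *T. cuspidata*.

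A part of the members was seen in 1 species only. Counts in *T. mairei* alone were found for 9 of 99 members (9.09%), against 3.72% of all unigenes tested, in *T. media* alone for 2 (2.02%, all 1.11%) and in *T. cuspidata* alone for 0 (all 0.561%). The 9 unigenes of *T. mairei* were 204 to 805 bp long with a median of 445 bp, against 938 bp for the other members, and they belonged to glutathione reductase, 6-phosphogluconate and glucose-6-phosphate dehydrogenase, ascorbate peroxidase, theta and unclassed transferases and aminopeptidase N. With a wider limit, at least 80% of the mean TPM over the species fell on *T. mairei* for 18 members (18.2%, all 12.3%), on *T. media* for 5 (5.05%, all 5.34%) and on *T. cuspidata* for 3 (3.03%, all 3.68%). In 4 of the 8 components that hold several members, a unigene below a mean of 1 TPM in some species stood beside a partner above it in all, as in the ascorbate peroxidases comp27844_c0 and comp27844_c1. Whether such a pair is 2 genes or 2 pieces or variants of 1 gene cannot be told apart from levels.

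Enzymes linked to glutathione outside the members were read from a list by ortholog. Of 23 unigenes of cysteine supply, 1 was called higher in *T. media* (background 15.7%) and 4 in *T. cuspidata* (10.1%), 2 in *T. media* (20.8%) and 9 in *T. mairei* (23.5%), and 7 in *T. mairei* (27.8%) and 5 in *T. cuspidata* (21.5%), in the 3 comparisons in turn. Serine acetyltransferase, which makes the carbon skeleton of cysteine, summed to 69.1 to 77.5 TPM in *T. media*, 77.7 to 80.4 TPM in *T. cuspidata* and 236 to 330 in *T. mairei*. *T. mairei* lay above both, by -1.80 (SE 0.12, edgeR adjusted p = 1.4e-05) in *T. media* vs. *T. mairei* and 1.66 (SE 0.12) in *T. mairei* vs. *T. cuspidata*. Its order over the species was that of glutamate-cysteine ligase. Adenylyl-sulfate reductase, which reduces activated sulfate with glutathione, was called lower in *T. media* than in *T. cuspidata* (-1.87, SE 0.31) and *T. mairei* (-1.91, SE 0.33). Its TPM in *T. mairei* ran from 10.6 to 43.3 and overlapped with that of *T. media* (11.9 to 20.1). The lowest *T. mairei* library was below every *T. media* library, and only 2 *T. mairei* libraries entered the count fit. *T. cuspidata* (37.8 to 62.1 TPM) lay above *T. media*. Cysteine synthase was not called.

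Of 13 unigenes tested for superoxide dismutase and monodehydroascorbate reductase, 2 and 2, 4 and 5, and 3 and 5 were called higher in the first and second species of the 3 comparisons, against the same backgrounds of 15.7% and 10.1%, 20.8% and 23.5%, and 27.8% and 21.5%. Cu/Zn superoxide dismutase, which makes the hydrogen peroxide that ascorbate peroxidase removes, was at 1162 ± 118, 2207 ± 66.8 and 730 ± 56.6 TPM (SD, n = 3) in *T. media*, *T. cuspidata* and *T. mairei*. Like ascorbate peroxidase it was called higher in *T. cuspidata* than in *T. media* (-1.06, SE 0.12, edgeR adjusted p = 0.00040) and than in *T. mairei* (-1.29, SE 0.14, edgeR adjusted p = 0.00012). Among 14 unigenes of glutathione-using detoxification, 2 and 2, 3 and 2, and 2 and 6 were called, against those same shares of all unigenes. Of their ortholog sums only glutathione-dependent formaldehyde dehydrogenase was called, with 186 ± 10.9 TPM in *T. media* against 40.3 ± 0.790 TPM in *T. mairei* (1.29, SE 0.11, edgeR adjusted p = 5.4e-05).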

How the data were processed

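Twigs of 3 *Taxus* species were sequenced in 9 libraries. The authors assembled all reads together with Trinity 2.4.0 and deposited annotation, lengths and values per unigene. The aligner and counter are not given in the sources used here. The deposited values are estimated counts and TPM for 8 libraries. For *T. mairei* replicate 3 the authors deposited TPM and RPKM, so the count fit holds 8 libraries. Counts were rounded and fitted in edgeR 4.0.16 (R 4.3.3) after filterByExpr with species as the group, using TMM scaling (0.933 to 1.157) and the quasi-likelihood test. The SE is the absolute log2 fold change divided by the square root of F. The common biological coefficient of variation was 0.370. TPM of each library are given for all 9, and tests on TPM were made only with limma, as an alternative.

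Alternatives were DESeq2 1.42.0 and its size factors, library sizes only, other count filters, limma 3.58.1 on log2(TPM + 1) or log2(TPM + 0.1), recovered reads, 2 species per fit, a replicate block and single libraries left out. Reads of *T. mairei* replicate 3 were recovered from RPKM. Of 4228 low values, 97.0% came within 0.1 of a whole number. The fit was tested on simulated data.

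Members, role lists, marker lists and the list of linked enzymes were chosen with earlier results of these data known. Named unigenes are, per comparison and direction, up to 12 called members with the largest fold, a mean of at least 1 TPM and libraries that do not overlap, the most abundant member of each role, and all members of synthesis and glutathione reductase. They are extremes by choice, and 16 further members were named after their values were seen. Where a *T. mairei* library was left out, the remaining one was assumed to vary like the other species.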

Additional observations from a re-analysis of the deposited data

How the results depend on the processing

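The counts of members called stayed within 1.5 times of the values given under nearly all alternatives. The exceptions were members higher in *T. media* than in *T. mairei*, 29 with limma on log2(TPM + 1), 28 on log2(TPM + 0.1) and 29 without a filter (18 in edgeR), and the orthologs called. These numbered 11, 11 and 11 for *T. media* vs. *T. mairei* under the same limma settings (3 in edgeR), 3 for *T. mairei* vs. *T. cuspidata* with recovered reads, and 2 without *T. cuspidata* replicate 2 or without *T. mairei* replicate 2 (5 with all). Without *T. cuspidata* replicate 2, *T. media* vs. *T. cuspidata* kept 2 of 4. The share of all unigenes called moved too. In *T. media* vs. *T. mairei* it was 52.0% with limma on log2(TPM + 1), against 44.3% in edgeR. With a *T. media* or *T. cuspidata* library left out, it was 21.5% to 27.9%, 40.1% to 46.8% and 47.6% to 51.4% in the 3 comparisons in turn. Shares over all orthologs are not given for these settings. With 1 library left out at a time, 33 to 38, 47 to 56 and 55 to 61 members and 2 to 4, 2 to 3 and 2 to 6 orthologs were called in the 3 comparisons in turn, and by direction 14 to 18 and 18 to 20, 14 to 18 and 32 to 38, and 31 to 37 and 22 to 25 members. Reversed were the large subunit of ribonucleotide reductase in *T. media* vs. *T. mairei* (-0.29 in counts, 1.39, 1.49 and 1.39 under limma), gamma-glutamyltranspeptidase in *T. mairei* vs. *T. cuspidata* (1.32 in counts, -1.55, -1.62 and -1.55 under limma, -0.0069 to 2.02 with 1 library left out), and, in normalized counts against TPM, the summed polyamine enzymes in *T. mairei* vs. *T. cuspidata* (0.20) and ribonucleotide reductase in *T. media* vs. *T. mairei* (-0.50). The cause was not tested. Of 210 values of summed roles, a further 17 moved in size. Among these were the ascorbate peroxidases in all 3 comparisons and synthesis in both comparisons with *T. mairei*. The sum over all members in *T. mairei* vs. *T. cuspidata* was also among them, and it changed sign. Its ratio was 1.09 in mean TPM, and its log2 ratio was -0.11 in normalized counts. For the members named by rule, 2195 of 2250 values kept their direction and side of the threshold, 33 lost a call, 22 gained one and 0 reversed.

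Replicate numbers did not pair the libraries, since deviations of libraries with the same number correlated between -0.088 and 0.049. With the replicate number as a block, 38, 53 and 56 members and 4, 2 and 4 orthologs were called, while 21.8%, 38.7% and 44.2% of all unigenes were.

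The precision rests on 2 or 3 libraries per species. The count scale and TPM gave different values for *T. mairei*, and the reason was not tested. Short unigenes, unigenes with several transcripts and those seen in 1 species are the least certain. Names come from the annotation, and how the counting divided reads among near-identical unigenes is not given in the sources used here.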
